A study of Mus musculus with 20 samples.

Results

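The TNF superfamily was taken as the protein-coding rows of a mouse liver RNA-seq table whose symbol begins with Tnfsf or Tnfrsf and a number, or is Tnf, Lta, Ltb, Ltbr, Cd27, Cd40, Cd40lg, Cd70, Fas or Fasl. This rule, which uses names and no measured value, found 42 rows with 41 symbols among 22572 protein-coding rows and 38924 rows in all: 17 ligands and 24 receptors. Members of the family that carry other names, such as Ngfr, Relt, Eda and its receptors, fall outside it. The livers came from male C57BL/6J WT mice and male TSP-1 knockout mice, both purchased at 5 weeks of age, acclimated for 1 week and fed for 12 weeks. NDWT and NDKO are WT and TSP-1 null mice on control chow, and HFWT and HFKO are WT and TSP-1 null mice on CDAHFD, a choline deficient high fat diet with defined amino acids that produces steatohepatitis and fibrosis. Each group held 5 mice, 1 library each. The sources used here do not say that null and WT mice were littermates, so strain source and genotype cannot be told apart.

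Values are FPKM, fragments per kilobase of gene model scaled to the assigned total of the library, and libraries held 15641545 to 23276322 assigned fragments. A member was tested where FPKM exceeded 0.5 in at least 5 libraries, and it is called higher or lower where the limma FDR, the Benjamini-Hochberg adjusted p over all 14524 tested genes, was under 0.05 and log2FC on log2(FPKM + 0.1) was beyond 0.58 in size. That scale understates the change of genes with low FPKM. Thbs1, which encodes TSP-1, went against the labels on control chow, where it lay at 0.058 to 0.326 FPKM in NDWT and 0.986 to 1.9 FPKM in NDKO; on CDAHFD it lay at 3.46 to 6.1 FPKM in HFWT and 3.05 to 4.4 FPKM in HFKO. Null and TSP-1 null below therefore mean libraries labelled so. HFWT replicate 5 had 5.55% of its fragments in ribosomal RNA gene models, against 0.176% to 1.98% in the other 19 libraries. The 5 hepatocyte markers (Alb, Apoa1, Ttr, Cyp2e1, Serpina1c) summed to 36680 to 43530 FPKM in NDWT, 40230 to 47060 in NDKO, then 27460 to 39490 in HFWT and 34860 to 46400 in HFKO. Of these 1 was called lower on CDAHFD in WT and 2 in null mice, with medians of -0.35 and -0.46. Of all tested genes 4.62% and 4.00% were called lower. After median of ratios scaling 5 and 3 markers were called lower, as were 2145 and 1921 of all 14524 tested genes. These are bulk pieces of liver, in which fewer cells of a type and less RNA per cell cannot be told apart.

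TNF superfamily ligands are mostly trimeric transmembrane proteins that can be shed, and they bring together receptors at the surface of a neighboring cell. Receptors with a cytoplasmic death domain, such as Tnfrsf1a and Fas, can recruit FADD or TRADD and start caspase cleavage, while the others bind TRAF adaptors and activate NF-kB and MAP kinases. Decoy receptors bind ligand without passing a signal. In liver, hepatocytes carry Fas, Ltbr and Tnfrsf1a, while macrophages and lymphocytes are the usual sources of Tnf and the lymphotoxins.

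Members share chromosomes: 9 symbols lie on chromosome 4 and 8 on chromosome 17, where Ltb, Tnf and Lta lie side by side between 35194439 and 35205351 of GRCm38. RefSeq promoters (GRCm38.p6) were found for 31 of the 41 symbols. The bases upstream of the start of Ltb and Tnf are shown because these are the ligands of this locus with measurable RNA. Those of Fas are shown because, of the tested members, it alone was called higher on CDAHFD in neither genotype. Each runs 5′ to 3′ on the strand of the gene and ends at the base before the gene start. Capitals mark an NF-kB consensus motif in Ltb, which reads in this orientation on the opposite strand, the TATA box letters TATAAA in Tnf, and the AP-1-like letters TGANTCA in Fas.
Ltb, chr17:35194257-35194438, plus strand: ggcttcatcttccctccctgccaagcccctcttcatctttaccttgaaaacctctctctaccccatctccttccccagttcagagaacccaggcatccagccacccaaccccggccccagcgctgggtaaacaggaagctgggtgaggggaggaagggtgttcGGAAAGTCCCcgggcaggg
Tnf, chr17:35202008-35202257, minus strand: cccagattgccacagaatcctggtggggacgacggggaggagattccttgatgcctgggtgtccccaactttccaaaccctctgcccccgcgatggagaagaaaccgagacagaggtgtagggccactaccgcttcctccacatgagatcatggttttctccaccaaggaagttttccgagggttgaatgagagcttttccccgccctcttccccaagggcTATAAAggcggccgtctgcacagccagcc
Fas, chr19:34290409-34290658, plus strand: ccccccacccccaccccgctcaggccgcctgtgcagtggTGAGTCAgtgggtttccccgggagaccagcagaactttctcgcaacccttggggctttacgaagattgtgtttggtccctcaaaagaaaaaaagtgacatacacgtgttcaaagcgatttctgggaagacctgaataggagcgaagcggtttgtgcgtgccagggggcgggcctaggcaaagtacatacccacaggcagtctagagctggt

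Over the 250 bases before the RefSeq start, read on both strands, the NF-kB consensus was present in 3 of the 31 symbols with a promoter (Ltb, Tnfrsf8, Tnfrsf9), or 9.68%, and in 4.46% of all 27025 symbols. TGANTCA was present in 6 of 31 (Fas, Tnfrsf8, Tnfrsf9, Tnfsf13, Tnfsf13b, Tnfsf14), or 19.4%, and in 7.82% of all symbols. TATAAA was present in 6 of 31 (Lta, Tnf, Tnfrsf17, Tnfrsf23, Tnfsf11, Tnfsf18), or 19.4%, and in 14.3% of all symbols. Each of the 3 promoters shown holds 1 of these motifs, so no site overlaps another. A match describes letters and not a bound site.

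Most tested members were higher on CDAHFD in both genotypes, although Tnfsf14, Tnfsf10, Tnfrsf11b, Tnfrsf4, Tnfsf9, Cd27 and Fas changed sign in at least 1 genotype under quantile normalization. Ltb, Tnf, Tnfsf13b, Tnfrsf11a, Tnfrsf19 and Tnfrsf10b each had a log2FC of at least 2.43 in both. In WT mice 24 of 26 tested members were called higher and 0 lower, beside 44.1% of all tested genes called higher and 4.62% called lower. In TSP-1 null mice 23 of 26 were called higher and 0 lower, beside 41.9% and 4.00% of all tested genes. Of these, 22 were called higher in both. Without HFWT replicate 5 the counts were 23 and 23, with Tnfrsf11b lost in WT. The counts, medians and separations of tested members here and below cannot be read as evidence about the family. Of the 26, 11 passed the filter with no control-chow library above 0.5 FPKM. These were Tnf, Tnfsf13, Tnfsf9, Tnfrsf10b, Tnfrsf13b, Cd40, Cd27, Tnfrsf4, Tnfrsf11a, Tnfrsf23 and Tnfrsf26. The filter favored a rise of these 11 on CDAHFD, so their FDR for diet below carries the same limit. Tnfsf13b and Tnfsf14 also needed their CDAHFD libraries to pass, so their FDR for diet carries it too. On control chow only NDWT replicate 2 (both genes) and NDKO replicate 1 (Tnfsf13b) exceeded 0.5 FPKM. Without any filter 31 of 41 member rows were called higher in each genotype, beside 32.5% of all genes in WT and 29.7% in null mice.

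The median log2FC of the tested members, under the same limit of the filter, was 1.51 in WT and 1.52 in null mice, beside 0.53 and 0.50 over all tested genes. Part of every log2FC below is thus shared by the whole table. Median of ratios scaling brought the medians over all genes to 0.01 and 0.0026, and those of the members to 1.08 and 1.06. Under it 20 and 19 of 26 members were called higher, beside 23.1% and 22.6% of all tested genes, and all of them were among those called without scaling, while 1 (Fas) was called lower in WT as were 2145 of all 14524 tested genes. Without a filter and with that scaling 24 and 22 of 41 were called higher, beside 18.1% and 16.9%. Under quantile normalization 15 of 26 were called higher in each genotype, and the sign turned for Tnfsf14, Tnfsf10 and Tnfrsf11b in both genotypes, for Tnfrsf4 and Tnfsf9 in WT and for Cd27 and Fas in null mice. Calls lost under median of ratios scaling were those of Tnfrsf11b, Tnfrsf1a, Tnfsf10 and Tnfsf14 in WT and of Cd27, Ltbr, Tnfrsf18 and Tnfrsf1a in null mice. Under quantile normalization Cd27, Tnfrsf11b, Tnfrsf18, Tnfrsf23, Tnfrsf26, Tnfrsf4, Tnfsf10, Tnfsf14 and Tnfsf9 lost theirs in WT, and Cd27, Tnfrsf18, Tnfrsf1a, Tnfrsf23, Tnfrsf26, Tnfrsf4, Tnfsf13 and Tnfsf14 in null mice. Every HFWT library lay above every NDWT library for 20 of 26 members, beside 50.5% of all tested genes, and every HFKO library above every NDKO library for 23, beside 52.7%. The filter limits these counts as well.

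**Figure D1:**
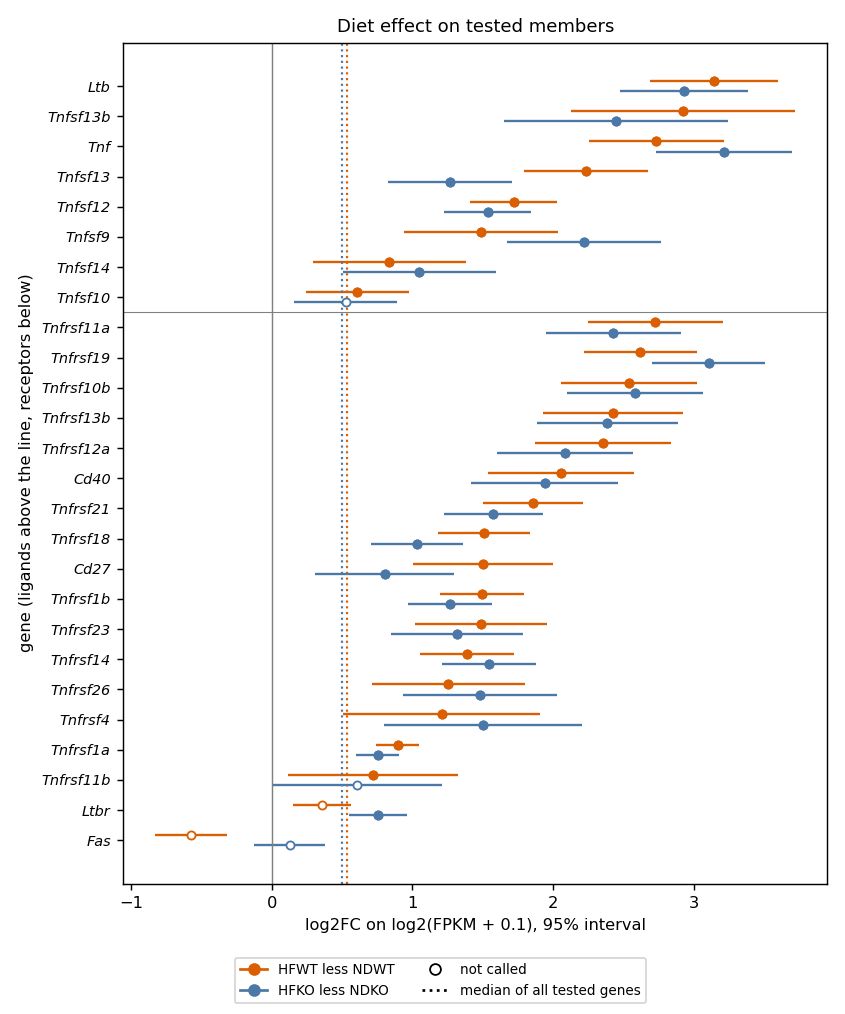
Diet effect on the 26 tested members, as log2FC on log2(FPKM + 0.1) with its 95% interval, in WT (orange) and TSP-1 null mice (blue). Filled points were called, open points were not, and dotted lines mark the medians over all tested genes, 0.53 and 0.50. Of the 26, 24 points are filled in WT and 23 in null mice, Fas lies below 0 in WT, and under quantile normalization several of the lower points change sign.

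Markers of most listed blood-borne cell types were higher on CDAHFD as well, beside 44.1% and 41.9% of all tested genes called higher in WT and null mice. The 5 monocyte and dendritic cell markers (Ly6c2, Ccr2, Itgax, Flt3, Xcr1) were all called higher in both genotypes and summed to 1.52 to 2.2 FPKM (NDWT), 0.924 to 1.74 (NDKO), 30 to 40.9 (HFWT) and 17.7 to 36.1 FPKM (HFKO). Of 6 T cell markers 5 were called higher in each genotype, with sums of 1.12 to 3.9 FPKM in NDWT, 1.53 to 2.7 in NDKO, then 5.65 to 12.6 in HFWT and 2.58 to 8.31 in HFKO. Of 5 B and plasma cell markers 4 rose in WT and 5 in null mice, with sums of 1.01 to 3.84, 2.01 to 6.16, 5.57 to 9.2 and 6.54 to 10.8 FPKM in the order NDWT, NDKO, HFWT, HFKO. Both tested NK cell markers and both tested neutrophil markers rose in each genotype. The 4 erythroid and platelet markers were Hbb-bt, Alas2, Pf4 and Itga2b. Of these 2 were called higher and 1 lower in WT, and 1 higher and 0 lower in null mice. Their sums were 33.2 to 41 FPKM in NDWT, 30.2 to 43.2 in NDKO, 28.8 to 39.6 in HFWT and 29.5 to 40.6 in HFKO. After median of ratios scaling 1 of the 4 was called higher and 2 lower in each genotype. Among 5 macrophage and Kupffer cell markers Cd68 and Csf1r rose, Clec4f and Timd4 fell, and Vsig4 was not called in either genotype. All 6 stellate cell and myofibroblast markers rose, from 9.34 to 13.1 FPKM in NDWT to 64.3 to 136 in HFWT, and all 4 cholangiocyte markers rose, from 2.05 to 3.11 FPKM to 23.4 to 45.6. No endothelial marker of 5 was called in WT and 1 (Pecam1) was called higher in null mice. After median of ratios scaling the T cell counts were 5 and 4, the B and plasma cell counts 3 and 2, the stellate counts 5 and 4, and 2 endothelial markers (Cdh5, Kdr) were called lower in WT with 0 called in null mice; the counts of monocyte, NK, neutrophil and cholangiocyte markers called higher did not change. Under that scaling 23.1% and 22.6% of all tested genes were called higher, and 2145 and 1921 of 14524 lower, in WT and null mice. Without it 4.62% and 4.00% were called lower. No listed marker in the table was at 0 in every library. The part of these cell types in the results that follow was not tested.

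All 8 tested ligands of 17 were called higher in WT and 7 in null mice, with Tnfsf10 as the exception. Of all tested genes 44.1% were called higher in WT and 41.9% in null mice. Tnf, Tnfsf13 and Tnfsf9 were tested only through their CDAHFD libraries, and Tnfsf13b and Tnfsf14 would not have passed without theirs. The count of ligands was thus partly set by the filter. The plot of ligands by library shows all 8. Tnf (ENSMUSG00000024401.8, GRCm38 chromosome 17, 35199381 to 35202007), the cytokine that gives the family its name, had 0.21, 0.366, 0.137, 0.249 and 0.306 FPKM (NDWT), 0.118, 0.134, 0.065, 0.191 and 0.181 (NDKO), 2.31, 2.72, 2.14, 2.88 and 1.31 (HFWT) and 1.57, 2.69, 1.73, 1.95 and 2.62 FPKM (HFKO). Every CDAHFD library lay above every control library. The log2FC of Tnf was 2.74 (SE 0.23, FDR 3.46e-09) in WT and 3.22 (SE 0.23, FDR 4.64e-10) in null mice. Ltb (ENSMUSG00000024399.5, GRCm38 chromosome 17, 35194439 to 35196320), lymphotoxin beta, which pairs with lymphotoxin alpha on lymphocytes to engage Ltbr, had 1.22, 1.42, 0.852, 0.5 and 0.992 FPKM (NDWT), 0.799, 0.61, 0.847, 1.07 and 0.979 (NDKO), 10.3, 9.87, 8.17, 11.8 and 6.6 (HFWT) and 6.54, 7.76, 7.77, 5.17 and 9.07 FPKM (HFKO). Its control and CDAHFD libraries did not overlap either, at log2FC 3.15 (SE 0.22, FDR 2.23e-10) in WT and 2.93 (SE 0.22, FDR 7.53e-10) in null mice. It had the highest FPKM of any ligand on CDAHFD, with 9.36 ± 2.02 in HFWT (SD, n = 5) against 0.997 ± 0.353 in NDWT.

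Both B cell survival ligands rose. Tnfsf13b, which encodes BAFF, had 0.092, 0.709, 0.181, 0.188 and 0.054 FPKM (NDWT), 0.625, 0.237, 0.058, 0.135 and 0.266 (NDKO), 3.12, 2.17, 1.91, 1.78 and 1.68 (HFWT) and 1.95, 1.65, 1.44, 1.52 and 1.69 FPKM (HFKO). NDWT replicate 2 and NDKO replicate 1 stood above their groups, yet every CDAHFD library was higher, and log2FC was 2.93 (SE 0.38, FDR 1.21e-06) in WT and 2.45 (SE 0.38, FDR 1.19e-05) in null mice. Tnfsf13, which encodes APRIL, had 0.21, 0.22, 0.206, 0.107 and 0.184 FPKM (NDWT), 0.385, 0.323, 0.163, 0.42 and 0.363 (NDKO), 1.02, 1.17, 1.33, 1.29 and 1.38 (HFWT) and 0.858, 0.859, 1.02, 0.587 and 1.38 FPKM (HFKO). Its log2FC was 2.24 (SE 0.21, FDR 1.59e-08) in WT and 1.27 (SE 0.21, FDR 2.53e-05) in null mice; the difference between these, the interaction, was -0.97 (95% interval -1.59 to -0.35, FDR 0.122). Tnfsf12, which encodes TWEAK, had 0.911, 0.853, 0.707, 0.656 and 0.614 FPKM (NDWT), 0.947, 1.02, 0.744, 0.601 and 1.02 (NDKO), 2.7, 2.9, 2.91, 2.89 and 2.05 (HFWT) and 2.42, 2.25, 2.6, 3.07 and 3.06 FPKM (HFKO). At log2FC 1.72 (SE 0.15, FDR 4.48e-09) in WT and 1.54 (SE 0.15, FDR 2.38e-08) in null mice, its control and CDAHFD libraries did not overlap. The Tnfsf13 model lies inside that of Tnfsf12 on the same strand of chromosome 11. A further model on that strand, BC096441, has the coordinates of Tnfsf12 and 0 FPKM in every library. The antisense 2010012P19Rik (at most 1.38 FPKM) overlaps both Tnfsf13 and Tnfsf12. Reads of these 2 genes may thus have been split or lost whether or not counting used strand, which is not given in the sources used here.

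Tnfsf9, the ligand of CD137 on T cells, had 0.175, 0.097, 0.137, 0.142 and 0.041 FPKM (NDWT), 0.039, 0.107, 0, 0 and 0.04 (NDKO), 0.453, 0.647, 0.602, 0.448 and 0.376 (HFWT) and 0.589, 0.364, 0.723, 0.452 and 0.512 FPKM (HFKO). Its fragments were few on control chow, and log2FC was 1.49 (SE 0.26, FDR 4.43e-05) in WT and 2.22 (SE 0.26, FDR 3.6e-07) in null mice. Tnfsf14, which encodes LIGHT, a ligand of both Ltbr and Tnfrsf14, had 0.231, 0.548, 0.393, 0.313 and 0.216 FPKM (NDWT), 0.208, 0.26, 0.173, 0.236 and 0.133 (NDKO), 0.72, 0.856, 0.69, 0.755 and 0.373 (HFWT) and 0.365, 0.378, 0.628, 0.435 and 0.931 FPKM (HFKO). HFWT replicate 5 lay within the range of NDWT, and log2FC was 0.84 (SE 0.26, FDR 0.00724) in WT and 1.05 (SE 0.26, FDR 0.00136) in null mice. Under quantile normalization both signs of Tnfsf14 turned, and so did that of Tnfsf9 in WT, where no FDR passed. Tnfsf10, which encodes TRAIL, ranged from 1.1 to 1.83 FPKM in NDWT, 0.786 to 1.36 in NDKO, 1.55 to 2.85 in HFWT and 1.45 to 2.14 in HFKO. For Tnfsf10 log2FC was 0.61 (SE 0.18, FDR 0.00432) in WT and 0.53 (SE 0.18, FDR 0.0117) in null mice, close to the median of all genes and of opposite sign under quantile normalization. Its call in WT was lost without any 1 of NDWT replicates 1 and 4 and HFWT replicates 1 and 3 (log2FC 0.52 to 0.57), and it was called in null mice without HFKO replicate 3 (log2FC 0.59). It was the ligand with the highest FPKM on control chow.

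**Figure D2:**
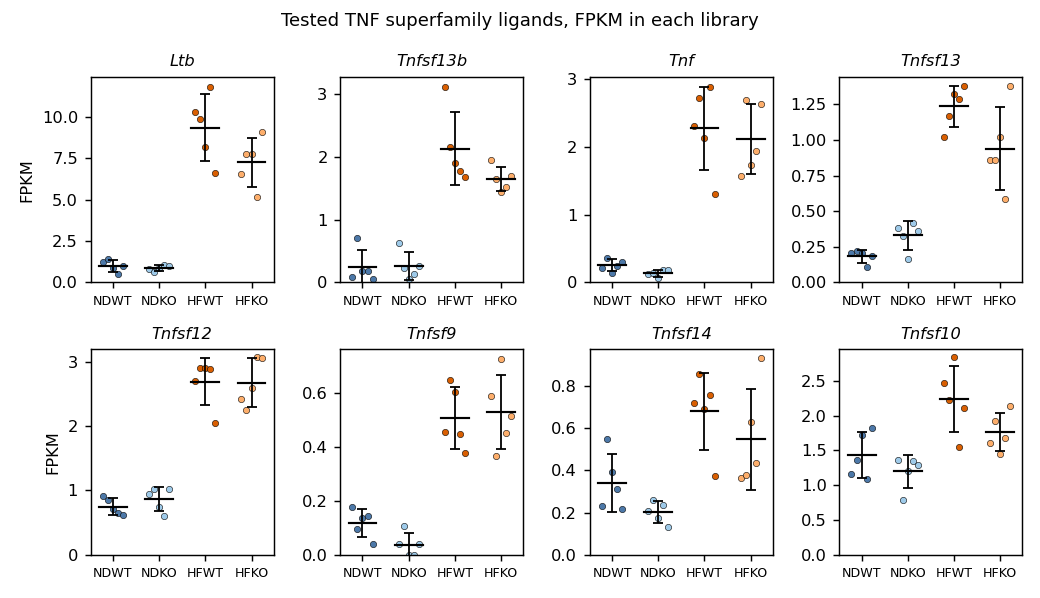
FPKM of the 8 tested ligands in each library, by group. Points are libraries in replicate order, bars are means and whiskers SD over 5 mice. Ltb, Tnf, Tnfsf13b, Tnfsf13, Tnfsf12 and Tnfsf9 separate the diets completely, with Tnf at 1.31 to 2.88 FPKM in HFWT and at most 0.366 on control chow.

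Of 4 tested death domain receptors, Tnfrsf1a, Tnfrsf10b and Tnfrsf21 were called higher in both genotypes and Fas in neither. The share of all tested genes called higher was 44.1% in WT and 41.9% in null mice. Tnfrsf1a, the widely expressed receptor of soluble TNF, had 26.8, 26.1, 29.5, 25.4 and 23.4 FPKM (NDWT), 32.8, 31.4, 28.9, 28.2 and 26.8 (NDKO), 51.8, 52.6, 49.9, 48.7 and 41.6 (HFWT) and 49.6, 48.8, 50.7, 47.4 and 52.8 FPKM (HFKO). Its diets were fully apart at log2FC 0.89 (SE 0.07, FDR 2.24e-09) in WT and 0.75 (SE 0.07, FDR 2.8e-08) in null mice, and after median of ratios scaling the values of 0.35 and 0.23 were no longer called. Tnfrsf10b, the death receptor of TRAIL in mice, had 0.149, 0.057, 0.106, 0.074 and 0.016 FPKM (NDWT), 0.015, 0.069, 0.118, 0.059 and 0.016 (NDKO), 0.914, 1.12, 0.949, 0.949 and 0.693 (HFWT) and 0.828, 0.685, 0.929, 0.734 and 0.877 FPKM (HFKO). Its control libraries stayed at or below 0.149 FPKM and log2FC was 2.54 (SE 0.23, FDR 9.87e-09) in WT and 2.59 (SE 0.23, FDR 8.98e-09) in null mice. Tnfrsf21, which encodes a death receptor of neurons and lymphocytes, had 3.04, 3.4, 2.51, 2.14 and 2.64 FPKM (NDWT), 3.83, 3.96, 3.08, 2.88 and 2.89 (NDKO), 12.1, 11, 11.4, 7.8 and 8.87 (HFWT) and 8.76, 11.4, 9.66, 7.24 and 14.5 FPKM (HFKO). No control library of Tnfrsf21 reached the CDAHFD libraries, and log2FC was 1.86 (SE 0.17, FDR 9.7e-09) in WT and 1.57 (SE 0.17, FDR 1.02e-07) in null mice.

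Fas (ENSMUSG00000024778.6, GRCm38 chromosome 19, 34290659 to 34327770), the receptor of Fas ligand on hepatocytes and many other cells, was the tested member with a log2FC below 0 for diet in WT. It had 15, 11.2, 14.5, 11.7 and 12.5 FPKM (NDWT), 5.38, 8.31, 7.54, 7.96 and 7.91 (NDKO), 9.44, 9.11, 10.4, 6.93 and 7.68 (HFWT) and 8.55, 8.48, 7.32, 8.01 and 7.78 FPKM (HFKO). Every NDWT library lay above every library of the other 3 groups. In WT mice Fas had a log2FC of -0.57 (SE 0.12, FDR 0.000296) on CDAHFD, just inside the 0.58 limit and so not called; without any 1 of 6 libraries (NDWT replicates 2, 4 and 5, HFWT replicates 1, 2 and 3) it passed that limit, at -0.59 to -0.64. After median of ratios scaling it was -1.11 and called lower. In TSP-1 null mice its log2FC was 0.13 (95% interval -0.13 to 0.38, FDR 0.362), which turned to -0.39 after that scaling. On control chow it was lower in TSP-1 null than in WT mice at log2FC -0.80 (SE 0.12, FDR 0.000412), and on CDAHFD the same difference was -0.10 (95% interval -0.36 to 0.15, FDR 0.688). The interaction of Fas was 0.70 (95% interval 0.34 to 1.06, FDR 0.0565) and did not pass. It passed after median of ratios scaling, with voom on fragments, without NDWT replicate 2 and without NDKO replicate 2.

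Of 11 tested receptors that bind TRAF adaptors, 10 were called higher in WT and 11 in null mice, beside 44.1% and 41.9% of all tested genes. Ltbr, the lymphotoxin beta receptor, had the highest FPKM of the family in every group, with 51.7, 51, 40.6, 41.7 and 38.3 FPKM (NDWT), 41.3, 47.6, 40, 38.8 and 36.7 (NDKO), 63.5, 58.5, 57.8, 60.2 and 45.8 (HFWT) and 68.2, 61.5, 72.8, 73 and 69.8 FPKM (HFKO). Its log2FC was 0.36 (SE 0.10, FDR 0.00302) in WT and 0.76 (SE 0.10, FDR 1.26e-06) in null mice, and after median of ratios scaling it was -0.18 and 0.24, neither called and the first of opposite sign. HFWT replicate 5 lay within the range of NDWT. Tnfrsf1b, the receptor of membrane-bound TNF on immune and endothelial cells, had 13.1, 9.34, 12.4, 10.6 and 9.18 FPKM (NDWT), 11.2, 11.3, 11.7, 9.72 and 10.3 (NDKO), 35.7, 31.6, 32.9, 29.4 and 25 (HFWT) and 23.6, 26.3, 27.5, 19.1 and 37.9 FPKM (HFKO). For Tnfrsf1b log2FC was 1.50 (SE 0.14, FDR 2e-08) in WT and 1.27 (SE 0.14, FDR 2.09e-07) in null mice, with the diets apart. Tnfrsf12a, the TWEAK receptor Fn14, had 7.94, 8.09, 4.96, 6.41 and 4.06 FPKM (NDWT), 6.34, 9.14, 11.6, 6.24 and 4.06 (NDKO), 39.3, 32.2, 29.6, 29.3 and 28.4 (HFWT) and 27.4, 34.2, 27.9, 23.9 and 39.5 FPKM (HFKO). Control and CDAHFD libraries of Tnfrsf12a did not overlap at log2FC 2.36 (SE 0.23, FDR 2.67e-08) in WT and 2.08 (SE 0.23, FDR 1.57e-07) in null mice.

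Tnfrsf14, which encodes HVEM, had 3.67, 4.76, 3.78, 2.67 and 3.98 FPKM (NDWT), 2.85, 2.7, 2.08, 3.35 and 3.12 (NDKO), 11.1, 9.3, 11.5, 9.74 and 8.09 (HFWT) and 8.45, 8.06, 7.44, 6.68 and 11.7 FPKM (HFKO). HFKO replicate 5 was its highest library, and log2FC was 1.39 (SE 0.16, FDR 2.28e-07) in WT and 1.55 (SE 0.16, FDR 6.27e-08) in null mice. Tnfrsf19 (ENSMUSG00000060548.6, GRCm38 chromosome 14, 60963834 to 61046855), which encodes TROY, a receptor of developing epithelium and nervous system, had 0.621, 0.815, 0.741, 0.464 and 1.11 FPKM (NDWT), 0.507, 0.461, 0.302, 0.288 and 0.466 (NDKO), 5.78, 6.08, 3.7, 4.65 and 5.03 (HFWT) and 4.22, 3.24, 4.74, 5.15 and 3.8 FPKM (HFKO). Control and CDAHFD libraries of Tnfrsf19 did not overlap, at log2FC 2.62 (SE 0.19, FDR 5.11e-10) in WT and 3.11 (SE 0.19, FDR 7.33e-11) in null mice. Tnfrsf11a, which encodes RANK, the receptor that drives osteoclast formation, had 0.368, 0.406, 0.47, 0.128 and 0.439 FPKM (NDWT), 0.338, 0.228, 0.447, 0.436 and 0.315 (NDKO), 2.89, 3.11, 2.91, 2.63 and 2.59 (HFWT) and 2.33, 2.58, 2.38, 1.4 and 3.17 FPKM (HFKO). HFKO replicate 4 lay lowest on CDAHFD but above all control libraries, and log2FC was 2.73 (SE 0.23, FDR 3.38e-09) in WT and 2.43 (SE 0.23, FDR 1.92e-08) in null mice.

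Receptors known from lymphocytes and antigen-presenting cells were low on control chow. Tnfrsf13b, which encodes TACI, a receptor of BAFF and APRIL, had 0.136, 0.19, 0.139, 0.226 and 0.141 FPKM (NDWT), 0.137, 0.202, 0.094, 0.044 and 0.105 (NDKO), 1.36, 1.53, 1.24, 1.13 and 1.39 (HFWT) and 0.767, 0.744, 1.29, 0.714 and 1.83 FPKM (HFKO). Its log2FC was 2.43 (SE 0.24, FDR 2.81e-08) in WT and 2.39 (SE 0.24, FDR 4.12e-08) in null mice, and control libraries lay at 0.226 FPKM or below. Cd40, which receives T cell help on B cells and macrophages, had 0.189, 0.264, 0.132, 0.205 and 0.235 FPKM (NDWT), 0.313, 0.116, 0.188, 0.11 and 0.145 (NDKO), 1.39, 1.47, 1.13, 1.35 and 0.645 (HFWT) and 0.691, 0.957, 0.849, 0.728 and 1.57 FPKM (HFKO). Although HFWT replicate 5 was the lowest CDAHFD library of Cd40, the diets stayed apart at log2FC 2.06 (SE 0.25, FDR 4.68e-07) in WT and 1.94 (SE 0.25, FDR 1.11e-06) in null mice. Cd27, a costimulatory receptor of T cells whose model overlaps Vamp1 on the other strand, had 0.406, 0.257, 0.241, 0.225 and 0.194 FPKM (NDWT), 0.479, 0.284, 0.23, 0.296 and 0.319 (NDKO), 1.13, 1.03, 0.89, 1.12 and 0.547 (HFWT) and 0.525, 0.467, 0.501, 0.652 and 1.13 FPKM (HFKO). NDKO replicate 1 of Cd27 lay among the HFKO libraries, and log2FC was 1.50 (SE 0.24, FDR 1.25e-05) in WT and 0.80 (SE 0.24, FDR 0.00518) in null mice, the second of opposite sign under quantile normalization.

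Tnfrsf18, which encodes GITR, a receptor of regulatory T cells, had 0.564, 0.511, 0.516, 0.535 and 0.559 FPKM (NDWT), 0.668, 0.953, 0.526, 0.657 and 0.584 (NDKO), 1.87, 1.32, 2.07, 1.94 and 1.48 (HFWT) and 1.22, 1.22, 1.39, 1.69 and 1.93 FPKM (HFKO). Its log2FC was 1.51 (SE 0.16, FDR 5.92e-08) in WT and 1.03 (SE 0.16, FDR 8.68e-06) in null mice, beside an overlapping antisense gene, Gm16008, at up to 3.39 FPKM. The call of Tnfrsf18 in null mice was lost after median of ratios scaling (0.56), and under quantile normalization it was lost in both genotypes (0.49 and 0.13). Tnfrsf4, which encodes OX40, had 0.409, 0.263, 0.206, 0.171 and 0.147 FPKM (NDWT), 0.071, 0.484, 0.235, 0.137 and 0.181 (NDKO), 0.613, 0.544, 0.976, 1.18 and 0.297 (HFWT) and 0.564, 0.843, 0.529, 0.778 and 1.08 FPKM (HFKO). HFWT replicate 5 of Tnfrsf4 lay within the NDWT range, and log2FC was 1.21 (SE 0.34, FDR 0.00318) in WT and 1.50 (SE 0.34, FDR 0.000525) in null mice, the first of opposite sign under quantile normalization. On chromosome 6 the neighbors Cd27, Ltbr and Tnfrsf1a lay within 125232622 to 125362484 of GRCm38 and had log2FC of 1.50, 0.36 and 0.89 in WT mice.

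Of the 3 decoy receptors 2 were tested. Tnfrsf11b, osteoprotegerin, which binds RANK ligand in solution, ranged from 0.595 to 1.24 FPKM in NDWT, 0.569 to 1.33 in NDKO, 0.551 to 2.13 in HFWT and 1.08 to 1.75 in HFKO. Its groups overlapped, at log2FC 0.72 (SE 0.29, FDR 0.0313) in WT and 0.60 (SE 0.29, FDR 0.0678) in null mice, and the call in WT was lost without any 1 of 6 libraries, NDWT replicates 1 and 4 and HFWT replicates 1, 2, 3 and 5 (log2FC 0.58 to 0.71). In TSP-1 null mice it was called without NDKO replicate 5 (log2FC 0.74) or HFWT replicate 4 (log2FC 0.61). Tnfrsf23, a mouse decoy receptor of TRAIL, had 0.243, 0.161, 0.335, 0.243 and 0.329 FPKM (NDWT), 0.303, 0.249, 0.255, 0.112 and 0.339 (NDKO), 1.28, 0.965, 0.956, 0.807 and 0.604 (HFWT) and 0.621, 0.782, 0.779, 0.604 and 1.03 FPKM (HFKO). The libraries of Tnfrsf23 separated by diet at log2FC 1.49 (SE 0.22, FDR 7.56e-06) in WT and 1.32 (SE 0.22, FDR 3.35e-05) in null mice. Tnfrsf26, its neighbor on chromosome 7, had 0.231, 0.342, 0.302, 0.352 and 0.387 FPKM (NDWT), 0.391, 0.192, 0.449, 0.105 and 0.233 (NDKO), 0.468, 1.03, 1.23, 1.06 and 0.913 (HFWT) and 0.7, 1.16, 0.822, 0.748 and 1.06 FPKM (HFKO). Tnfrsf26 also separated by diet, at log2FC 1.26 (SE 0.26, FDR 0.000254) in WT and 1.48 (SE 0.26, FDR 4.75e-05) in null mice. Tnfrsf22, Tnfrsf23 and Tnfrsf26 are neighboring paralogs, and whether reads were shared between them was not tested, so these values are uncertain.

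**Figure D3:**
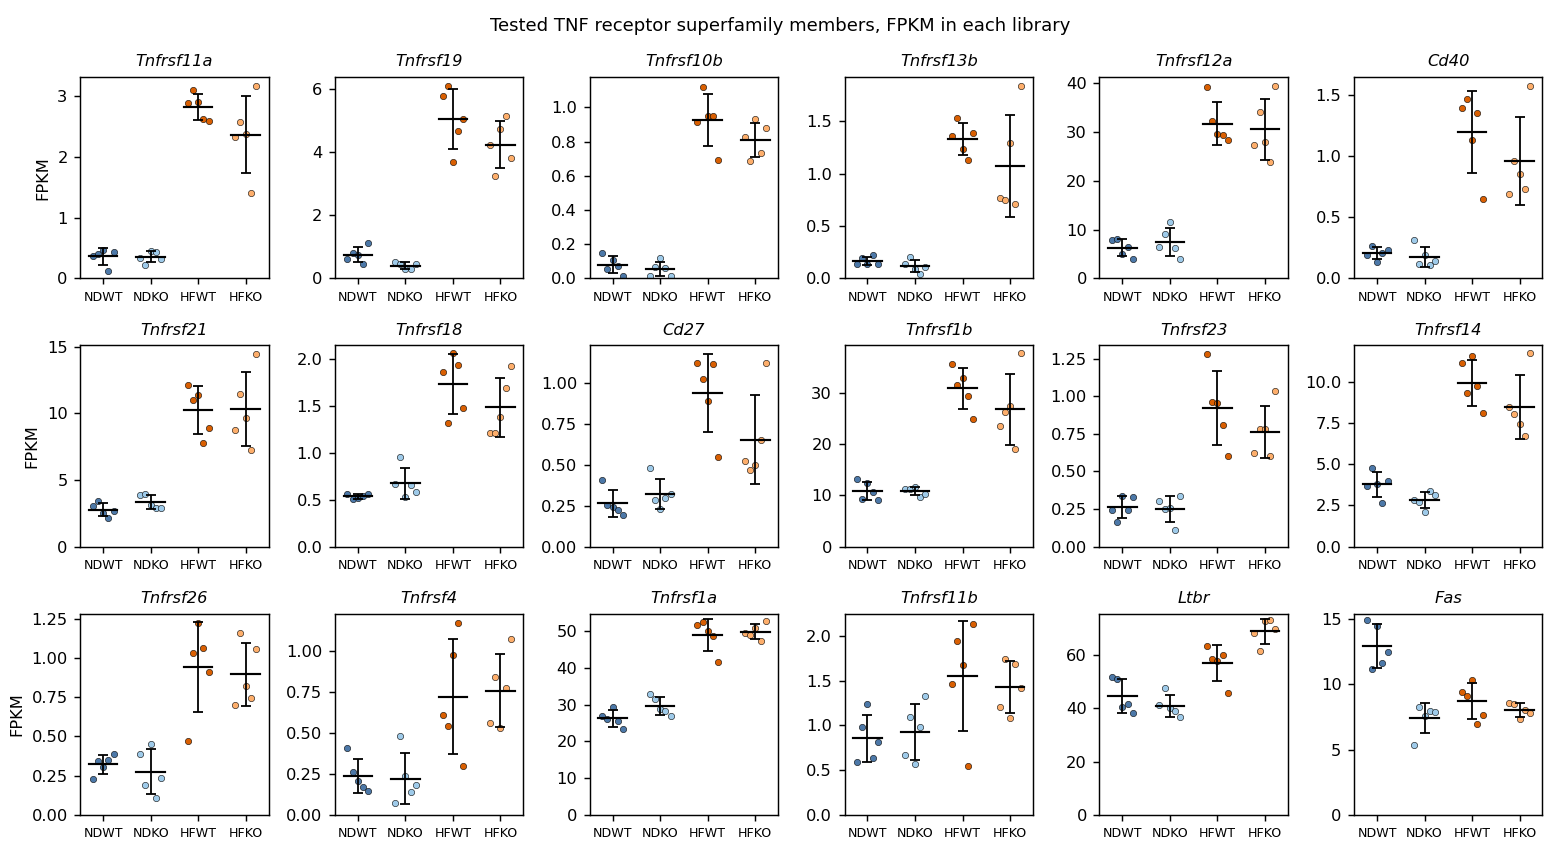
FPKM of the 18 tested receptors in each library, by group, ordered by the diet effect in WT. Points are libraries in replicate order, bars are means and whiskers SD over 5 mice. Fas, last, is highest in NDWT at 11.2 to 15 FPKM, while Tnfrsf10b stays at or below 0.149 FPKM on control chow and reaches 0.685 to 1.12 on CDAHFD.

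The 16 member rows that were not tested held few fragments. Summed over the 5 libraries of a group, Tnfrsf9 (CD137) had 2 fragments in NDWT, 75 in HFWT, 5 in NDKO and 58 in HFKO. Tnfsf8, the CD30 ligand, had 5, 73, 7 and 36 in the same order, and Tnfrsf8, CD30 itself, had 0, 29, 3 and 32. Against a floor of 3 fragments over the 5 NDWT libraries, Tnfrsf8 was at least 9.73-fold higher in HFWT. Fasl, the ligand of Fas on T and NK cells, had 9 and 56 fragments in WT and 16 and 42 in null mice, and its depth-adjusted ratio of 6.26 in WT had an exact 95% counting interval of 3.07 to 14.4. Tnfrsf13c, the BAFF receptor of B cells, had 29 and 90 in WT and 28 and 71 in null mice. Tnfrsf25 (death receptor) had 57 and 87, and 30 and 75, and Tnfrsf22 had 60 and 127, and 40 and 95. Lta had 3 and 15, and 7 and 19, and Tnfsf11, RANK ligand, had 1 and 15, and 0 and 11. Cd40lg, on activated T cells, had 6 and 19, and 6 and 13. Tnfsf15, Tnfsf18, Tnfsf4, Tnfrsf17 and Cd70 had at most 6 fragments in any group, and the other row of Tnfrsf22 had 0 in all libraries. Fitted without a filter, 8 of the 15 rows with any fragment were called higher in WT and 8 in null mice, beside the 32.5% and 29.7% of all genes given above. With median of ratios scaling as well, 5 and 3 were called, beside 18.1% and 16.9%. These intervals and floors cover counting error only.

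Ratios of 2 members were compared within libraries, for pairs chosen with earlier results of these data known, so the p-values are no independent evidence. The ratio of Tnfrsf1b to Tnfrsf1a, the receptors of TNF, was 0.357 to 0.489 in NDWT, 0.342 to 0.404 in NDKO, then 0.601 to 0.69 in HFWT and 0.403 to 0.718 in HFKO. On log2((a + 0.1)/(b + 0.1)) it rose by 0.60 in WT (exact permutation test, two-sided p = 0.00794, adjusted p = 0.0238 over 12 tests) and by 0.52 in null mice (exact permutation test, p = 0.0159, adjusted p = 0.0381). The second adjusted p exceeded 0.05 without 8 of the 10 libraries, all but NDKO replicate 3 and HFKO replicate 4. The ratio of Tnfrsf10b to Tnfsf10, TRAIL receptor to TRAIL, was at most 0.128 on control chow and 0.329 to 0.643 on CDAHFD. On the log2 scale it was higher on CDAHFD by 1.93 in WT and 2.06 in null mice; this is given as a description, since Tnfrsf10b passed the filter through its CDAHFD libraries. The next ratio carries the limit given above for reads of Tnfsf12. The ratio of Tnfrsf12a to Tnfsf12, Fn14 to TWEAK, was 6.61 to 9.78 in NDWT and 10.1 to 14.6 in HFWT, and rose by 0.64 in WT (exact permutation test, p = 0.00794, adjusted p = 0.0238). In TSP-1 null mice it spread over 3.99 to 15.5 in NDKO and 7.78 to 15.2 in HFKO, a difference of 0.55 that did not pass (exact permutation test, p = 0.167, adjusted p = 0.25) and was 0.97 with a pseudocount of 1. The smallest p that 252 arrangements allow is 0.00794. No ratio differed between genotypes on either diet past the threshold (exact permutation tests, lowest adjusted p = 0.143), but without HFKO replicate 5 the ratio of Tnfrsf1b to Tnfrsf1a was lower in HFKO than in HFWT, by -0.37 at adjusted p = 0.0381 (exact permutation test).

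**Figure D4:**
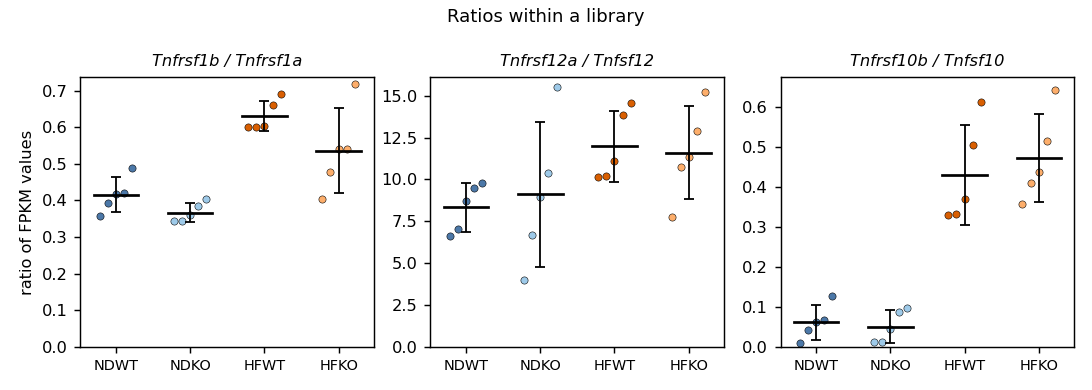
Ratio of FPKM values within each library for 3 pairs of members, by group. Points are libraries sorted by value, bars are means and whiskers SD over 5 mice. Tnfrsf10b to Tnfsf10 separates the diets in both genotypes, at 0.00875 to 0.128 on control chow and 0.329 to 0.643 on CDAHFD.

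Few members differed between genotypes. On control chow 2 of 26 were called lower in TSP-1 null than in WT mice, Fas and Tnfrsf19, beside 3.03% of all tested genes, and 0 were called higher, beside 1.74%. The median of the 26 was -0.13, and that of all tested genes -0.07. Fas was 7.42 ± 1.17 FPKM in NDKO against 13 ± 1.67 in NDWT (SD, n = 5), a log2FC of -0.80 (SE 0.12, FDR 0.000412) that was called under every alternative processing with this comparison. Tnfrsf19 was 0.405 ± 0.102 FPKM against 0.751 ± 0.242, a log2FC of -0.73 (SE 0.19, FDR 0.0167). The groups of Tnfrsf19 overlapped, and without NDWT replicate 5 its log2FC was -0.59 at FDR 0.0516. The Tnfrsf19 call was also lost with a pseudocount of 1 (-0.31), with only the groups compared (FDR 0.0678) and with voom (-0.84, FDR 0.0726). Tnf itself was 0.138 ± 0.051 FPKM in NDKO and 0.254 ± 0.0879 in NDWT, a log2FC of -0.56 (95% interval -1.05 to -0.08, FDR 0.116) that did not pass. Tnfsf9, at -0.69 (SE 0.26, FDR 0.0908), and Tnfsf13, at 0.57 (SE 0.21, FDR 0.0804), did not pass either. Without NDKO replicate 2 Tnfsf9 was called, at -0.85 and FDR 0.041, and without NDKO replicate 3 Tnfsf13 was called, at 0.74 and FDR 0.021.

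On CDAHFD 0 of 26 members were called between genotypes with limma, beside 0.496% of all tested genes, and 1 of 26 had an unadjusted p under 0.05. The log2FC of the 26 ran from -0.49 for Cd27 to 0.28 for Ltbr, with a median of -0.22 against -0.10 over all tested genes. Tnf was 2.11 ± 0.515 FPKM in HFKO and 2.27 ± 0.616 in HFWT, a log2FC of -0.08 (95% interval -0.57 to 0.40, FDR 0.882), whose sign turned after either rescaling and without HFWT replicate 4 or HFKO replicate 1. Ltbr had 0.28 (95% interval 0.07 to 0.48, FDR 0.158) and Ltb -0.36 (95% interval -0.81 to 0.10, FDR 0.412). Over the 26 members the widest 95% intervals reached from -1.12 to 0.84. For some members, such as Tnfsf13b and Cd27, they do not exclude a difference as large as that of Fas on control chow. The intervals of others, such as Tnf, Tnfsf12, Ltbr and Fas itself, did not reach a difference of that size. No interaction passed either: 0 of 26 were called by limma, beside 0.647% of all tested genes, and 4 had an unadjusted p under 0.05. Voom on recovered fragments called 0 of 26 on CDAHFD, with 4 at an unadjusted p under 0.05, and 1 interaction, that of Fas.

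**Figure D5:**
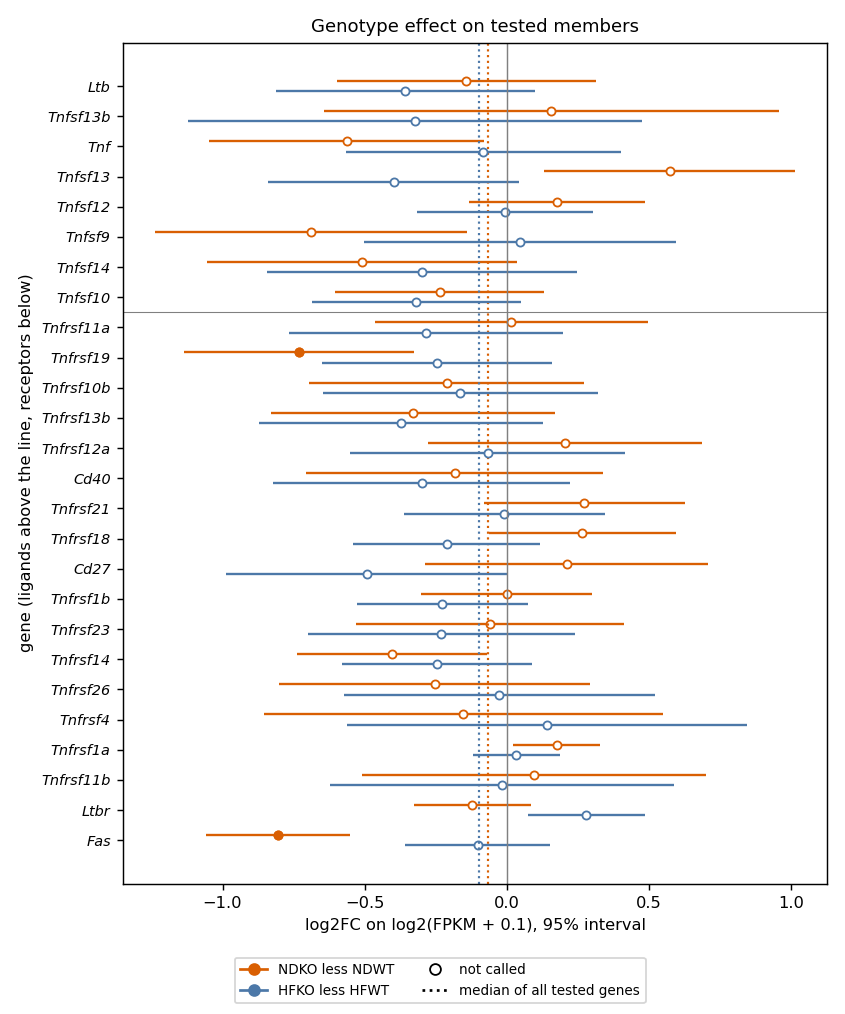
Genotype effect on the 26 tested members, as log2FC on log2(FPKM + 0.1) with its 95% interval, on control chow (orange) and CDAHFD (blue). Filled points were called, open points were not, and dotted lines mark the medians over all tested genes, -0.07 and -0.10. Fas at -0.80 and Tnfrsf19 at -0.73 on control chow are the filled points.

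Genes that act next to these receptors were taken from a list. Of 54 listed adaptors, kinases, NF-kB components, inhibitors, death effectors, shedding enzymes and further family receptors, 50 were tested. Of these 37 were called higher in WT and 36 in null mice, beside 44.1% and 41.9% of all tested genes. In each genotype 0 were called lower, beside 4.62% and 4.00% of all tested genes. The median log2FC of the 50 was 1.09 and 1.10, against 0.53 and 0.50 over all tested genes. After median of ratios scaling 24 and 25 were called higher, beside 23.1% and 22.6% of all tested genes. Under that scaling 5 and 2 were called lower, beside 2145 and 1921 of all 14524 tested genes. Of 12 NF-kB subunits and IKK components 10 and 9 were called higher, but 3 and 6 after that scaling, with 1 called lower in WT. Relb, a subunit of the noncanonical arm that Ltbr and Cd40 use, rose by log2FC 2.98 and 2.94 in WT and TSP-1 null mice, and Nfkbie, an inhibitor of NF-kB, by 2.61 and 2.55. Of 9 inhibitors and feedback genes 7 were called higher in each (6 and 5 after scaling), among them Tnfaip3, which edits ubiquitin on TNF receptor complexes, at 2.89 and 2.92, its partner Tnip1 at 2.34 and 2.55, Tnip2 at 1.59 and 0.92 and the ubiquitin ligase Birc3 at 1.64 and 1.58. The kinase subunit Ikbkb rose by 1.08 and 0.84 and Nfkb2, the precursor of the noncanonical subunit, by 2.26 and 2.00. Of 5 shedding and processing genes 4 were called higher in each, with Rhbdf1, a partner of the TNF sheddase Adam17, at 2.27 and 2.04 and the sheddase Adam10 at 1.19 and 1.26. The genes named here were the listed ones with the 10 lowest FDR in WT. Their FDR there, at most 1.46e-09 with limma, was thus low by that choice.

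Between genotypes 4 of these 50 genes were called on control chow, 3 lower and 1 higher, beside 3.03% and 1.74% of all tested genes. Cflar, the FLIP inhibitor of caspase activation at Fas, had a log2FC of -0.61 (SE 0.10, FDR 0.000779) in NDKO against NDWT. Bid, which carries the death receptor signal to mitochondria, had -0.59 (SE 0.10, FDR 0.00127), and Rel, an NF-kB subunit, -0.73 (SE 0.16, FDR 0.00612). Tab1, a partner of the kinase TAK1, had 0.58 (SE 0.14, FDR 0.011). Cflar and Bid were lower in the group in which Fas was lower, and neither was called after median of ratios scaling. On CDAHFD 0 of 50 were called by limma, beside 0.496% of all tested genes. The interaction passed for Tnip2 alone, at -0.67 (SE 0.14, FDR 0.0303). Acta2, a myofibroblast marker, was also lower in NDKO than in NDWT, at -1.13 (SE 0.29, FDR 0.0155), and no other listed marker was called between genotypes on either diet. Its part in the lower Fas and Tnfrsf19 was not tested.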

How the data were processed

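Poly(A) RNA of 20 mouse livers was sequenced from directional libraries. The authors deposited FPKM per gene; per their processing notes STAR 2.5.2 and featureCounts of Subread 1.5.1 were used. The notes name a human build, but 99.82% of 37607 gene IDs matched GRCm38 coordinates. FPKM were converted back to fragments (at least 99.99% whole within 0.02), giving 15641545 to 23276322 per library; 3 fragments equal 0.129 to 0.192 FPKM on 1 kb.

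limma 3.58.1 (R 4.3.3, trended eBayes) was fitted on log2(FPKM + 0.1) of all 20 libraries and 14524 genes above 0.5 FPKM in at least 5 libraries, for 5 contrasts, with Benjamini-Hochberg FDR. It was tested on simulated data. Ratios were tested by exact permutation (Python 3.11.15, scipy 1.17.1). Members, lists and ratios were chosen with earlier results of these data known. Every member called anywhere was given by library, up to 24 by lowest FDR; of the listed pathway genes, those called between genotypes or in the interaction and the 10 with lowest FDR in WT were named. Alternatives covered pseudocounts, filters, scaling, models, a replicate block and leaving out each library; no filter together with median of ratios scaling was added after seeing the data. Mice were separate animals, and no libraries were copies. Replicate numbers did not pair the samples.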

Additional observations from a re-analysis of the deposited data

Results flagged for a closer look

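Among 104 groups of 5 libraries over the 26 tested members, 5 held a library far from the other 4, and chance gives about 1 in 20, or 5%. Tnfsf10 in NDKO replicate 2 was 0.786 FPKM, against 1.21 to 1.36 in the others. Tnfsf12 in HFWT replicate 5, the library with most ribosomal RNA fragments, was 2.05 FPKM, against 2.70 to 2.91. Tnfsf13b in NDWT replicate 2 was 0.709 FPKM, against 0.054 to 0.188. Cd27 in HFKO replicate 5 was 1.13 FPKM, against 0.467 to 0.652. Fas in NDKO replicate 1 was 5.38 FPKM, against 7.54 to 8.31, and Fas stayed called between genotypes on control chow without it.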

How the results depend on the processing

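Over 62 results for single members and 35 alternatives, 33 results kept direction and side of the threshold throughout and 50 kept their direction. The count of members called in null mice on CDAHFD fell to 15 with a pseudocount of 1 and to 15 with quantile normalization. In WT the count called higher fell from 24 to 18 and to 15 under the same 2 changes. The count between genotypes on control chow was 1 with a pseudocount of 1, with only the groups compared and with voom, and the interaction count was 1 with median of ratios scaling and with voom. Leaving out 1 library gave 22 to 25 members for diet in WT, 22 to 24 in null mice, 1 to 3 for genotype on control chow (1 without NDWT replicate 5), 0 to 0 on CDAHFD and 0 to 1 for the interaction (1 without NDWT replicate 2 or NDKO replicate 2). Over all genes the same counts ran from 5076 to 10623, 4607 to 10406, 393 to 1899, 38 to 163 and 36 to 184, against 7083, 6669, 693, 72 and 94 as reported.

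Median of ratios scaling, with or without the filter, turned Ltbr in WT to -0.18, Fas in null mice to -0.39 and Tnf between genotypes on CDAHFD to 0.0095. Quantile normalization turned Tnfsf14 to -0.41 in WT and -0.27 in null mice, Tnfsf10 to -0.29 and -0.32, Tnfrsf11b to -0.33 and -0.28, Tnfrsf4 in WT to -0.13, Tnfsf9 in WT to -0.097, Fas in null mice to -0.39, Cd27 there to -0.34 and Tnf between genotypes on CDAHFD to 0.052. That value of Tnf was 0.010 without HFWT replicate 4 and 0.0092 without HFKO replicate 1. The cause was not tested.

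The ratio of Tnfrsf10b to Tnfsf10 between genotypes on control chow turned to -0.26 with a pseudocount of 0.01 and ran from -0.21 to 0.22 over left-out libraries. The ratio of Tnfrsf12a to Tnfsf12 for diet in null mice was 0.97 with a pseudocount of 1 (exact permutation test, adjusted p = 0.0476); between genotypes it ran from -0.19 to 0.28 on control chow and from -0.17 to 0.071 on CDAHFD over left-out libraries. For Tnfrsf1b to Tnfrsf1a the same range was 0.40 to 0.61 for diet in null mice and -0.37 to -0.16 between genotypes on CDAHFD. Same-numbered libraries had correlations of deviations from group means of -0.133 to 0.0812, 0 of 30 above 0.1, so the numbers gave no pairing. With the replicate block the counts of members called were 24, 23, 2, 0 and 0. With the block the diet values of the ratios, 0.60 and 0.52 for Tnfrsf1b to Tnfrsf1a, 0.64 for Tnfrsf12a to Tnfsf12 in WT and 1.93 and 2.06 for Tnfrsf10b to Tnfsf10, had an adjusted p of 0.15 in an exact sign-flip permutation test, whose smallest p is 0.0625, so that pairing cannot pass. Depth limits members with few fragments, and 16 rows were not tested.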

Other observations

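Of 6 listed receptors and ligands that carry other names 3 were tested, and these 3 receptors rose on CDAHFD. Eda and Edar were not tested. Relt, a receptor of lymphoid tissue, had log2FC 1.92 (SE 0.24, FDR 6.51e-07) in WT and 1.59 (SE 0.24, FDR 7.25e-06) in null mice with limma. Ngfr, the p75 neurotrophin receptor found on hepatic stellate cells, had 1.44 (SE 0.20, FDR 3.27e-06) and 1.34 (SE 0.20, FDR 8.35e-06), and Eda2r, a receptor of ectodysplasin, had 2.15 (SE 0.28, FDR 1.28e-06) and 2.34 (SE 0.28, FDR 4.65e-07). All 3 were called higher in both genotypes, beside 44.1% and 41.9% of all tested genes in WT and null mice. They were also called higher after median of ratios scaling, beside 23.1% and 22.6%. Among genes that cut ligands and receptors from the membrane, Adam17 had 1.12 (SE 0.11, FDR 2.72e-08) and 1.35 (SE 0.11, FDR 2.59e-09) and its partner Rhbdf2 1.57 (SE 0.18, FDR 1.53e-07) and 1.62 (SE 0.18, FDR 1.19e-07), while Furin, a convertase that processes several ligands, was not called at 0.16 (SE 0.11, FDR 0.181) and 0.40 (SE 0.11, FDR 0.00242). These genes were chosen for description after their values were seen.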
